A study of Mus musculus with 25 samples.

Results

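Collagens, laminins and integrins form a system in which cells build an extracellular matrix and hold on to it, and 79 of the 36528 gene IDs in the deposited tables belong to these 3 gene families. Members were taken by symbol: every protein-coding gene named as a collagen alpha chain (44 genes), a laminin alpha, beta or gamma chain (11 genes) or an integrin alpha or beta subunit (24 genes), with the myeloid sorting antigen Itgam left out. Itga2b, Itgb2l and Itgbl1 fall outside the symbol rule. The rule reads symbols and no measured value.

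Collagen chains trimerise into fibrils (fibrillar chains), sheets (network-forming chains such as those of type IV), beaded filaments (type VI), molecules that decorate fibrils, or membrane-bound proteins. Laminins are cross-shaped trimers of 1 alpha, 1 beta and 1 gamma chain that, with type IV collagen, make up basement membranes. In the brain these lie around blood vessels, where astrocyte end-feet touch them. Integrins are receptors of 1 alpha and 1 beta subunit that bind matrix proteins, or ligands on other cells, and connect them to the actin cytoskeleton.

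RNA was measured in NeuN+ neurons and in Gfap+ astrocytes that had been sorted from brains of mice aged 6 months. The groups were 6 libraries of hMAPT-P301S transgenic neurons and 5 of hMAPT-P301S transgenic astrocytes (P301S; human tau with the P301S mutation), with 8 libraries of neurons and 6 of astrocytes from non-transgenic littermates (non-Tg). The labels name neither the promoter of the transgene nor how many animals a library holds, and do not tie neuron libraries to astrocyte libraries. The p-values therefore measure the spread between these samples, which may be technical.

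The libraries held 1.25e+06 to 4.45e+06 counts. The summed level of 10 neuron markers was 1463 to 1836 and 1455 to 1954 CPM (counts per 1e+06 of the TMM-scaled library) in P301S and non-Tg neurons, against 131 to 468 and 164 to 289 CPM in P301S and non-Tg astrocytes. That of 10 astrocyte markers was 310 to 564 and 236 to 552 CPM in the neurons, against 12420 to 25440 and 13280 to 22940 CPM in the astrocytes, so the labels and markers match. P301S astrocyte libraries had 11968 to 16400 genes detected at a depth of 1e+06 counts, against 15083 to 17871 in non-Tg astrocytes, and Gfap, the antigen of their sort, rose by 2.22 (log2, SE 0.30, edgeR adjusted p = 5.12e-04). In bulk samples of this kind, fewer cells of a type and less RNA per cell cannot be told apart.

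The 79 members together took 0.0987% to 0.117% of the counts in P301S neurons, 0.102% to 0.127% in non-Tg neurons, 0.100% to 0.136% in P301S astrocytes and 0.118% to 0.140% in those of non-Tg mice. At least 3 counts in every library of the group were found for 33 members in P301S neurons, 31 in non-Tg neurons, 25 in P301S astrocytes and 32 in astrocytes of non-Tg mice. No member was at 0 in every neuron library of a genotype. In P301S astrocytes 7 members were at 0 in all 5 libraries (Col3a1, Col6a4, Col8a2, Col13a1, Col22a1, Lamb3 and Itgad), and in non-Tg astrocytes only Lamb3 was. A count of 0 allows up to 3 counts, which is 0.674 to 2.41 per 1e+06 counts across the libraries, before TMM scaling. These floors cover counting error only and are not on the scale of the CPM given here.

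Per length, in the authors' size-factor-adjusted RPKM, the summed laminin chains were lower in every neuron library (2.17 to 3.31 RPKM in P301S and 1.51 to 3.22 in non-Tg) than in any astrocyte library (7.21 to 11.2 and 8.20 to 12.7). Means over the 11 chains were 2.63 ± 0.442 RPKM in P301S neurons and 2.45 ± 0.509 in non-Tg neurons, against 9.07 ± 1.54 in P301S astrocytes, with 10.2 ± 2.04 in non-Tg astrocytes (SD, n = 6, 8, 5 and 6). Collagen chains summed to 12.3 ± 1.59 RPKM in P301S neurons, 11.5 ± 1.79 in non-Tg neurons, 15.5 ± 3.44 in P301S astrocytes, with 9.01 ± 1.35 in non-Tg astrocytes. Integrin subunits summed to 8.47 ± 1.46, 11.1 ± 1.65, 11.4 ± 3.12 and 12.6 ± 1.91 RPKM in the same order of groups. The collagen sum of the P301S astrocyte libraries ran from 11.5 to 19.7 RPKM, its lowest just above the highest non-Tg astrocyte library (7.35 to 11.2 RPKM). The laminin and integrin sums of the astrocyte groups overlapped. Chain by chain, the 19 collagen chains tested between the astrocyte groups had a median log2 change of 0.23, beside 0.13 over all genes tested. The mitochondrial share of counts was also higher in 4 of these 5 P301S libraries (3.42%, 8.66%, 6.54%, 10.97% and 7.37%) than in any non-Tg astrocyte library (2.16% to 5.39%), and its part in the collagen levels was not tested.

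Different chains made up these sums. In P301S neurons the highest mean RPKM belonged to Col11a1 (3.67), Itga8 (2.95), Col4a1 (1.60) and Itga4 (1.59), and in non-Tg neurons to Itga8 (4.52), Itga4 (2.72), Col11a1 (2.32) and Col4a1 (1.44). In P301S astrocytes it belonged to Lama2 (5.95), Col27a1 (2.63), Itgb8 (2.51) and Col1a1 (1.87), and in non-Tg astrocytes to Lama2 (6.93), Itgb8 (2.79), Itga6 (2.29) and Itgav (2.04). No gene stands among the leading 4 of both cell types.

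Neurons were then set against astrocytes within each genotype, in 1 edgeR quasi-likelihood fit of all 25 libraries with a Benjamini-Hochberg adjustment over 14197 genes. The filter on low counts kept 48 of the 79 members. Most of the kept members separated the cell types: in P301S 14 were higher and 20 lower in neurons, and in non-Tg 14 were higher and 19 lower. Over all genes tested 23.2% were higher and 29.0% lower in P301S neurons, and 21.8% were higher and 25.1% lower in non-Tg neurons, so that many genes of any kind differed. The libraries of neurons and astrocytes did not overlap for 25 of the 48 members in P301S and 27 in non-Tg, where 29.7% and 31.3% of all genes tested did not. The median log2 difference of the 48 was -0.56 in P301S and -0.32 in non-Tg, beside -0.21 and -0.11 over all genes.

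The 31 members that the filter removed had group means of at most 6.45 CPM. That mean belonged to Itga5, a fibronectin receptor subunit, in non-Tg astrocytes, where library 5 had 23.0 CPM and the others 1.93 to 3.80 CPM. Other single astrocyte libraries also stood out, with Col8a1 at 17.6 and Itgax at 14.1 CPM in P301S library 1 and Itgb4 at 17.1 CPM in non-Tg library 1. They include the fibril chain gene Col3a1, the vascular laminin gene Lama4, the endostatin precursor gene Col18a1 and Itgb2, the beta subunit of leukocyte integrins. Lama4 averaged 2.86 CPM in P301S neurons, 1.37 in non-Tg neurons, 2.09 in P301S astrocytes, with 1.09 in non-Tg astrocytes. Itgb2 averaged 2.16, 1.34, 1.25 and 1.14 CPM in those groups.

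**Figure D1:**
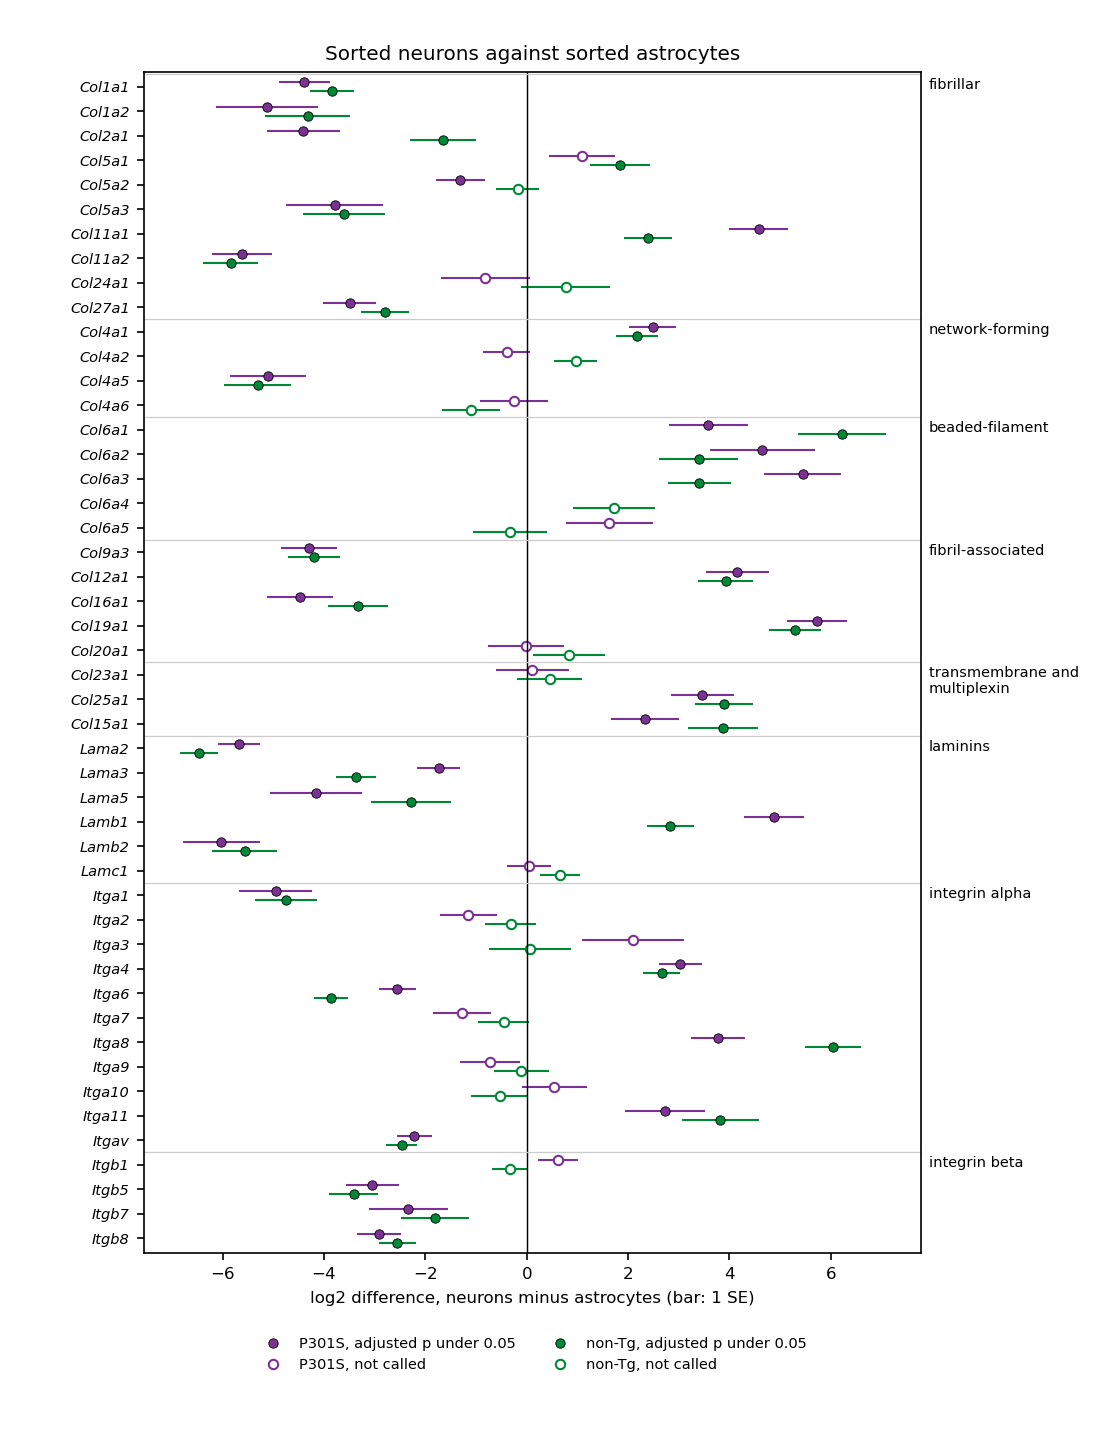
Log2 difference (neurons minus astrocytes) of the 48 tested members, with bars of 1 SE and each member's P301S value above its non-Tg value. Filled points have an adjusted p under 0.05, and Col6a4 in P301S is not drawn because its P301S astrocyte libraries were all at 0. Lama2, Lamb2 and Col11a2 lie farthest to the left in both genotypes, and Col19a1 is among those farthest to the right.

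Laminin chains were lower in neurons for 4 of the 6 tested genes in each genotype, and 1 was higher. The shares over all genes were 29.0% lower and 23.2% higher in P301S, and 25.1% and 21.8% in non-Tg. Lama2 encodes the alpha2 chain of the laminin that muscle and glial basement membranes use. Its TMM-scaled level (CPM) was 2.66, 6.55 and 13.2 in P301S neurons (lowest, median and highest), against 326, 286, 290, 492 and 334 in the 5 P301S astrocyte libraries. In non-Tg the lowest, median and highest were 0.540, 4.64 and 10.0 CPM in neurons, against 339, 398 and 537 CPM in astrocytes. Every astrocyte library was above every neuron library by a wide margin. The log2 difference was -5.67 (SE 0.42, adjusted p = 7.06e-13) in P301S and -6.47 (SE 0.38, adjusted p = 1.98e-15) in non-Tg by edgeR.

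Lamb2, the beta2 chain that pairs with such alpha chains, was almost confined to astrocytes. It had 0 to 2.25 CPM in P301S neurons, with 4 of 6 libraries at 0, against 29.9, 27.5, 47.5, 14.4 and 41.0 CPM in P301S astrocytes. In non-Tg neurons it had 0 to 2.81 CPM, against 12.9 to 50.4 CPM in non-Tg astrocytes. The ranges did not meet in either genotype, with log2 differences of -6.03 (SE 0.76) and -5.56 (SE 0.64; edgeR adjusted p = 5.58e-08 and 8.70e-09). Without P301S neuron library 1 the P301S value was -7.24. Lama3, the alpha chain of epithelial laminins, was lower by -1.74 (SE 0.43; -1.13 without P301S astrocyte library 1) in P301S and -3.36 (SE 0.39) in non-Tg neurons. Lama5, an alpha chain of vessel and epithelial basement membranes, was lower by -4.17 (SE 0.91) and -2.29 (SE 0.79).

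The beta1 chain Lamb1 ran the other way. It had 23.6, 39.0 and 54.2 CPM in P301S neurons (lowest, median and highest), against 2.59, 0, 1.37, 0.684 and 0.999 CPM in P301S astrocytes. In non-Tg it had 23.2, 37.1 and 54.5 CPM in neurons, against 0.291, 4.97 and 9.03 CPM in astrocytes. All neuron libraries were above all astrocyte libraries, by 4.88 (SE 0.59, edgeR adjusted p = 2.66e-08) in P301S and 2.84 (SE 0.46, adjusted p = 4.29e-06) in non-Tg on the log2 scale. Lamc1, the gamma1 chain shared by most laminins, was not called: it averaged 39.8 ± 8.83 CPM in P301S neurons against 35.9 ± 28.8 in P301S astrocytes, and 40.0 ± 12.4 in non-Tg neurons against 24.4 ± 14.5 in non-Tg astrocytes (SD; edgeR adjusted p = 0.937 and 0.178). The laminin genes thus divided by chain, with Lamb1 higher in neurons, Lama2 and Lamb2 higher in astrocytes and Lamc1 detected in every library of both.

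**Figure D2:**
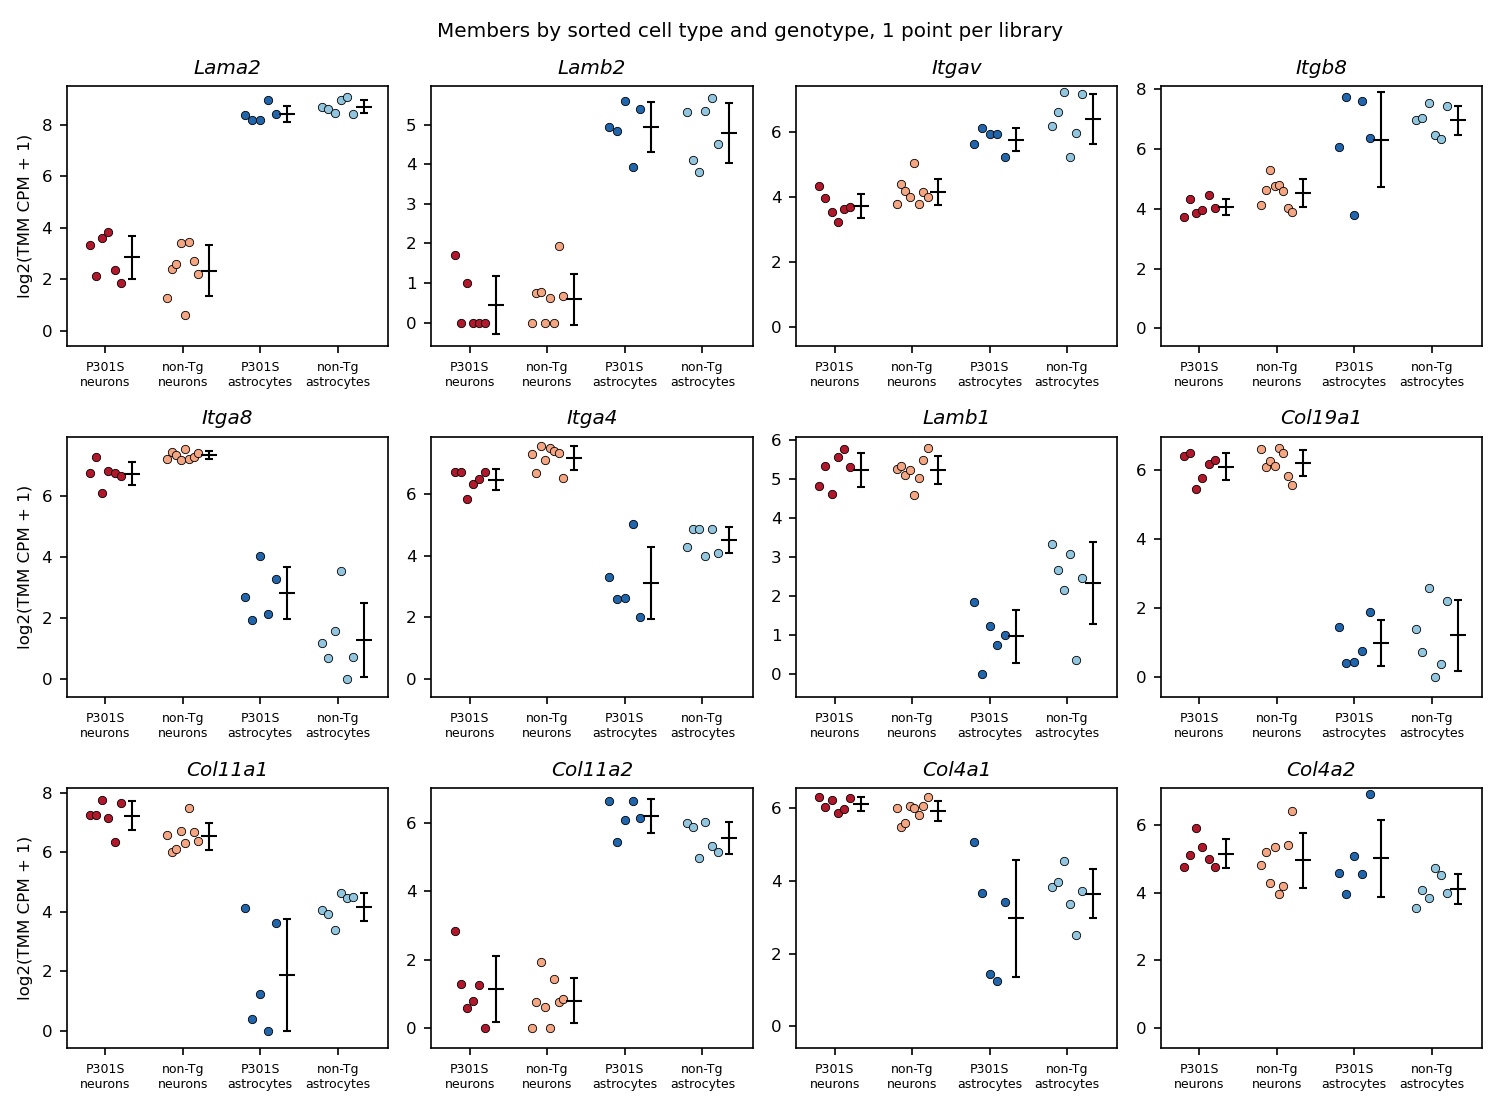
Level of 12 members in each library as log2(TMM CPM + 1), in P301S neurons, non-Tg neurons, P301S astrocytes and non-Tg astrocytes, with bars for the group mean ± SD. Lama2, Lamb2, Itgav, Itgb8 and Col11a2 sit higher in astrocytes, Itga8, Itga4, Lamb1, Col19a1, Col11a1 and Col4a1 sit higher in neurons, and Col4a2 overlaps.

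Of 11 tested integrin alpha subunits 3 were higher and 3 lower in neurons of each genotype. That is close to the shares over all genes (23.2% higher and 29.0% lower in P301S, 21.8% and 25.1% in non-Tg). Of the 4 tested beta subunits 3 were lower and 0 higher in each genotype. Itga8, a receptor subunit for RGD-bearing ligands such as nephronectin, had 68.8, 109 and 156 CPM in P301S neurons (lowest, median and highest), against 5.47, 2.85, 15.4, 3.42 and 8.66 CPM in P301S astrocytes. In non-Tg it had 147, 160 and 189 CPM in neurons, against 0, 0.971 and 10.6 CPM in astrocytes. All neuron libraries were above all astrocyte libraries. The log2 difference was 3.78 (SE 0.53, edgeR adjusted p = 4.68e-07) in P301S and 6.04 (SE 0.56, adjusted p = 7.60e-11) in non-Tg, or 7.48 without non-Tg astrocyte library 4. In the annotation 6.40% of its exon bases are shared with E030013I19Rik on the opposite strand, and the sources used here do not say whether counting used strand.

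Itga4, the subunit that binds VCAM1 and fibronectin, had 56.2, 96.2 and 105 CPM in P301S neurons, against 8.92, 5.06, 5.12, 31.5 and 2.998 CPM in P301S astrocytes. In non-Tg it had 89.9, 156 and 189 CPM in neurons, against 14.8, 23.3 and 28.3 CPM in astrocytes. The ranges did not overlap, and the log2 differences were 3.03 (SE 0.42) in P301S and 2.66 (SE 0.36) in non-Tg (edgeR adjusted p = 3.52e-07 and 2.22e-07). Itga11, a collagen receptor subunit, was the third alpha subunit higher in neurons, by 2.73 (SE 0.78) and 3.82 (SE 0.76), at 6.90 ± 1.62 and 8.44 ± 4.02 CPM against 0.876 ± 1.62 and 0.531 ± 0.581 CPM (SD).

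The astrocyte side held the alphav and alpha6 subunits. Itgav, which pairs with several beta subunits to bind RGD ligands and latent TGF-beta, had 8.41, 11.7 and 19.1 CPM in P301S neurons, against 48.6, 69.2, 60.1, 60.2 and 37.0 CPM in P301S astrocytes. In non-Tg it had 12.8, 16.0 and 31.8 CPM in neurons, against 37.0, 84.9 and 149 CPM in astrocytes. Here too the cell types did not overlap, with log2 differences of -2.22 (SE 0.34) and -2.47 (SE 0.30; edgeR adjusted p = 2.17e-06 and 2.46e-08). Itga6, a laminin receptor subunit, was lower by -2.56 (SE 0.36) in P301S and -3.87 (SE 0.34) in non-Tg neurons, and the collagen receptor subunit Itga1 by -4.95 (SE 0.72) and -4.74 (SE 0.61).

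Itgb8, the beta subunit that joins alphav, had 12.4, 15.1 and 21.0 CPM in P301S neurons, against 66.2, 214, 12.98, 194 and 81.3 CPM in P301S astrocytes. Non-Tg libraries had 13.9, 23.6 and 38.4 CPM in neurons, against 80.4, 127 and 185 CPM in astrocytes. Library 3 of the P301S astrocytes lay inside the neuron range, so the groups overlapped in P301S but not in non-Tg. The log2 differences were -2.91 (SE 0.43) and -2.56 (SE 0.37; edgeR adjusted p = 8.15e-07 and 5.58e-07). Itgb5, another partner of alphav, was lower by -3.05 (SE 0.52) in P301S and -3.41 (SE 0.48) in non-Tg neurons.

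Itgb7, the partner of alpha4 in gut-homing lymphocytes, was called on low levels, at 2.07 ± 1.33 CPM in P301S neurons against 10.2 ± 11.3 in P301S astrocytes, and 2.37 ± 1.83 in non-Tg neurons against 8.30 ± 4.76 in non-Tg astrocytes. Its adjusted p, 0.0123 and 0.0264 by edgeR, ranged to 0.211 and 0.0758 under other settings, and the P301S call was lost without P301S astrocyte library 4 (-1.51 in place of -2.33). Without non-Tg astrocyte library 2 or 6, or non-Tg neuron library 1, 3 or 5, the non-Tg call was lost (adjusted p = 0.0758, 0.0643, 0.0518, 0.0513 and 0.0521). Itgb1, the most widely shared beta subunit, was not called: it averaged 21.4 ± 6.13 CPM in P301S neurons against 12.6 ± 8.64 in P301S astrocytes, and 21.4 ± 8.17 in non-Tg neurons against 25.8 ± 5.87 in non-Tg astrocytes (SD; edgeR adjusted p = 0.196 and 0.469).

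Among the 10 tested fibrillar collagen chains 7 were lower and 1 higher in P301S neurons, and 6 were lower and 2 higher in non-Tg neurons. Of all genes, 29.0% were lower and 23.2% higher in P301S, and 25.1% and 21.8% in non-Tg. The chains of type XI collagen, which nucleates fibrils, were on opposite sides. Col11a1 had 80.6, 152 and 219 CPM in P301S neurons, against 16.4, 0.316, 1.37, 0 and 11.3 CPM in P301S astrocytes. Non-Tg libraries had 63.1, 88.4 and 180 CPM in neurons, against 9.43, 18.4 and 23.6 CPM in astrocytes. Every neuron library exceeded every astrocyte library, by 4.57 (SE 0.58) in P301S and 2.40 (SE 0.47) in non-Tg on the log2 scale (edgeR adjusted p = 6.44e-08 and 6.20e-05).

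Col11a2 had 0, 1.05 and 6.19 CPM in P301S neurons, against 99.9, 42.4, 67.3, 98.5 and 69.9 CPM in P301S astrocytes. Non-Tg libraries had 0, 0.691 and 2.85 CPM in neurons, against 30.3, 48.8 and 63.8 CPM in astrocytes. All astrocyte libraries were higher, with log2 differences of -5.61 (SE 0.59) and -5.84 (SE 0.55; edgeR adjusted p = 1.58e-09 and 9.34e-11). The P301S value was -6.58 without P301S neuron library 1.

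The type I chains, the main fibril collagen of connective tissue, were also lower in neurons. Col1a1 averaged 2.63 ± 1.60 CPM in P301S neurons against 51.1 ± 19.0 in P301S astrocytes, and 3.32 ± 2.24 in non-Tg neurons against 45.1 ± 16.7 in non-Tg astrocytes (SD). The log2 differences were -4.39 (SE 0.50) and -3.84 (SE 0.43) for Col1a1 and -5.12 (SE 1.005) and -4.32 (SE 0.84) for Col1a2. Col1a2 had 0 to 1.46 CPM in P301S neurons, against 6.04, 42.4, 0.683, 7.52 and 3.66 CPM in P301S astrocytes, so the groups overlapped and library 2 stood above the others. Non-Tg neurons had 0 to 1.36 CPM, against 3.91 to 18.5 CPM in non-Tg astrocytes, without overlap. Col27a1, a fibrillar chain of cartilage, was lower by -3.49 (SE 0.53; -4.08 without P301S neuron library 1) and -2.80 (SE 0.47), and Col5a3, a type V chain, by -3.79 (SE 0.95) and -3.61 (SE 0.81). Col5a1, another type V chain, was higher in non-Tg neurons by 1.85 (SE 0.59, edgeR adjusted p = 0.00999), and its P301S difference of 1.09 (SE 0.65) was not called (adjusted p = 0.160).

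Markers of other cell types also differed between neurons and astrocytes. Summed over 10 mural cell markers the level was 15.5 to 20.8 CPM in P301S neurons and 12.4 to 24.4 in non-Tg neurons, against 45.8 to 191 in P301S astrocytes, with 97.7 to 167 in non-Tg astrocytes, where Pdgfrb alone averaged 65.2 and 78.8 CPM. Of 7 tested mural markers 5 were lower and 1 higher in P301S neurons, and 4 lower in non-Tg neurons (medians -3.01 and -3.80). The sum of 6 oligodendrocyte precursor markers was 1.46 to 5.52 and 1.08 to 4.27 CPM in P301S and non-Tg neurons, against 37.6 to 459 and 68.0 to 153 CPM in the astrocytes, and the 3 tested were lower in neurons of both genotypes (medians -4.82 and -4.85). The sum of 9 oligodendrocyte markers was 69.1 to 84.7 and 41.7 to 88.5 CPM in the neurons, against 397 to 1190 and 201 to 529 CPM in the astrocytes, and the 6 tested were lower in neurons of both genotypes. The sum of 10 fibroblast and meningeal markers was 7.53 to 14.6 and 12.4 to 37.0 CPM in the neurons, against 3.997 to 65.2 and 12.5 to 38.0 CPM in the astrocytes; Fmod was at 0 in all P301S neuron libraries and Mgp in all non-Tg astrocyte libraries. The sum of 10 endothelial markers was 7.53 to 15.8 and 10.5 to 19.0 CPM in the neurons, against 0.683 to 24.3 and 0.874 to 35.2 CPM in the astrocytes; Cldn5, Kdr and Egfl7 were at 0 in all P301S astrocyte libraries, Egfl7 in all non-Tg astrocyte libraries and Tie1 in all P301S neuron libraries. Their part in the collagen and laminin levels was not tested.

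Of type VI collagen, the beaded-filament collagen that surrounds cells, 5 chains were tested. Of these, 4 were higher in P301S neurons and 3 in non-Tg neurons, with none lower, beside 23.2% and 21.8% of all genes that were higher. In the fits of 1 cell type alone the filter kept 0 type VI chains in astrocytes and 4 in neurons. The chains thus entered the test mainly through the neuron libraries, so a lower call was unlikely from the start. Col6a1 had 7.31, 14.1 and 24.9 CPM in P301S neurons, against 4.89, 0, 0.683, 0 and 0 CPM in P301S astrocytes. Non-Tg libraries had 13.3, 17.3 and 59.4 CPM in neurons, against 0 to 1.39 CPM in astrocytes, with 4 of the 6 at 0. The groups did not overlap, and the log2 differences were 3.58 (SE 0.78) and 6.22 (SE 0.86; edgeR adjusted p = 2.54e-04 and 2.93e-07). The P301S value was 5.96 without P301S astrocyte library 1, and the non-Tg value 7.61 without non-Tg astrocyte library 4.

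Col6a2 was higher by 4.65 (SE 1.03) in P301S and 3.40 (SE 0.78) in non-Tg neurons, and Col6a3 by 5.44 (SE 0.77) and 3.40 (SE 0.62). Their levels in neurons were 5.16 ± 2.39 and 7.25 ± 7.42 CPM for Col6a2 and 21.6 ± 21.2 and 10.7 ± 6.63 CPM for Col6a3 (SD, P301S and non-Tg). In astrocytes both averaged under 1 CPM. Single libraries moved these values: Col6a2 had 5.32 without P301S astrocyte library 4 and 4.80 without non-Tg astrocyte library 6, and Col6a3 had 4.79 without P301S neuron library 3. Col6a4 was detected in all neuron libraries, at 1.33 to 6.38 CPM in P301S and 1.90 to 8.39 CPM in non-Tg. It was at 0 in all P301S astrocyte libraries and in 4 of 6 non-Tg astrocyte libraries, but non-Tg astrocyte library 6 had 7.50 CPM (23 counts), and the non-Tg difference was not called (edgeR adjusted p = 0.0813).

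The fibril-associated chains again divided. Col19a1, a minor basement-membrane-zone collagen that interneurons make, had 43.2, 74.6 and 89.0 CPM in P301S neurons, against 1.73, 0.316, 0.342, 0.684 and 2.67 CPM in P301S astrocytes. Among non-Tg libraries it had 46.7, 72.6 and 98.2 CPM in neurons, against 0, 1.12 and 4.96 CPM in astrocytes. The separation was complete, with log2 differences of 5.72 (SE 0.59) and 5.30 (SE 0.52; edgeR adjusted p = 1.11e-09 and 2.31e-10), and 6.31 in P301S without P301S astrocyte library 5. Col12a1, which links fibrils to other matrix, was higher by 4.15 (SE 0.62) and 3.93 (SE 0.54), while Col9a3, a chain of cartilage type IX collagen, was lower by -4.29 (SE 0.55) and -4.20 (SE 0.51) and Col16a1 by -4.47 (SE 0.65) and -3.33 (SE 0.59).

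Of the 3 tested transmembrane and multiplexin chains, Col25a1 and Col15a1 were higher in neurons and Col23a1 was not called. Col25a1, the membrane collagen first found in amyloid plaques, averaged 55.9 ± 12.9 CPM in P301S neurons against 4.61 ± 7.27 in P301S astrocytes, and 64.0 ± 15.7 in non-Tg neurons against 4.11 ± 3.10 in non-Tg astrocytes (SD; log2 3.47, SE 0.61, and 3.89, SE 0.57). The P301S value was 5.09 without P301S astrocyte library 2. Col15a1, a basement membrane multiplexin, was higher by 2.34 (SE 0.67, edgeR adjusted p = 0.00408) and 3.87 (SE 0.69, adjusted p = 1.71e-05). The P301S call of Col15a1 was lost with limma voom (adjusted p = 0.133, range over 32 other settings 2.23e-04 to 0.133).

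Type IV collagen, the network of basement membranes, holds a gene pair that shares 1 promoter region. Col4a1 (minus strand) and Col4a2 (plus strand) lie head to head on chromosome 8 (GRCm38.p6), with the start sites used here at 11312826 and 11312805. These sites are 21 bases apart, and each transcript begins by reading across the start of the other, so that they share 22 exon bases on opposite strands. The gene record of Col4a1 extends beyond its site, to 11312889. The promoter windows run from 250 bases before to 50 bases after each start and overlap by 78 bases. They are shown because the 2 chains, which assemble into 1 trimer, did not keep 1 ratio in astrocytes. Capitals mark GGGCGG (GC box) and CCAAT on either strand, read 5′ to 3′ along each gene, from RefSeq: Col4a1 is at chr8:11312777-11313076 on the minus strand and Col4a2 at chr8:11312555-11312854 on the plus strand.
Col4a1: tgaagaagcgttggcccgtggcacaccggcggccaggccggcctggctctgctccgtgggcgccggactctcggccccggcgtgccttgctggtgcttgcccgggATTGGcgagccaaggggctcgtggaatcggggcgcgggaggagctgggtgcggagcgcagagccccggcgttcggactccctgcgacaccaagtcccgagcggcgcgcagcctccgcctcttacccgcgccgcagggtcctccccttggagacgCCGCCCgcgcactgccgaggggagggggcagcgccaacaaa
Col4a2: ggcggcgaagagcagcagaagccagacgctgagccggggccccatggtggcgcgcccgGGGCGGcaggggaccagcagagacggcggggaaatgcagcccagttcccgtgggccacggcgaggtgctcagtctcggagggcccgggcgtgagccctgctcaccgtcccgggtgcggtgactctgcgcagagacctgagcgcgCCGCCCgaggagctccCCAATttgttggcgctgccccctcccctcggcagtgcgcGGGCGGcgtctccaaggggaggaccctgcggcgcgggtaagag

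The Col4a1 window held 1 GC box and 1 CCAAT and was 74% G or C, and the Col4a2 window held 3 GC boxes and 1 CCAAT and was 73.7% G or C. The Col4a1 box and the last Col4a2 box are the same site, read on opposite strands within the 78 bases that the windows share. Neither held TATAA. Of 32851 RefSeq promoter windows of this length, 35.7% held GGGCGG, 37.4% CCAAT and 24.9% TATAA on either strand, and of 62 windows of 56 members 54.8%, 27.4% and 16.1% did. The median G or C content was 59.3% in the members' windows and 52.7% in all windows.

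Col4a1 was the neuron-side chain of the pair. It had 57.0, 68.5 and 77.6 CPM in P301S neurons, against 32.8, 11.7, 1.71, 1.37 and 9.66 CPM in P301S astrocytes. Among non-Tg libraries it had 43.3, 62.9 and 77.4 CPM in neurons, against 4.66, 12.6 and 22.3 CPM in astrocytes. The cell types did not overlap, with log2 differences of 2.48 (SE 0.47) and 2.18 (SE 0.42; edgeR adjusted p = 4.39e-05 and 5.59e-05). The P301S value was 3.31 without P301S astrocyte library 1.

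Col4a2 overlapped between the cell types. It had 26.2, 32.5 and 59.7 CPM in P301S neurons, against 23.0, 14.6, 33.1, 22.6 and 121 CPM in P301S astrocytes. Among non-Tg libraries it had 14.6, 31.9 and 84.0 CPM in neurons, against 10.6, 15.4 and 25.9 CPM in astrocytes. The log2 differences, -0.40 (SE 0.46) and 0.96 (SE 0.43), were not called by edgeR (adjusted p = 0.486 and 0.0634). The P301S value turned to 0.55 without P301S astrocyte library 5 and to 0.14 with limma voom. In non-Tg the gene was called under 14 of 32 other settings (adjusted p 0.0141 to 0.158). Among them were DESeq2 (0.0141), limma voom (0.0289) and edgeR with RLE size factors (0.0254), no filter (0.0484), a filter at 1 CPM (0.0352) or the 2 groups alone (0.0241). Of single libraries, leaving out P301S astrocyte 2, 4 or 5, P301S neuron 3, non-Tg astrocyte 4, or non-Tg neuron 3, 5 or 6 brought that call (adjusted p = 0.0439, 0.0457, 0.0219, 0.0480, 0.0402, 0.0359, 0.0301 and 0.0468).

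The log2 ratio of Col4a1 to Col4a2 in RPKM, chosen after the values were seen and therefore given without a test, put this in 1 number per library. It was 0.0798 to 1.34 in P301S neurons and -0.334 to 1.89 in non-Tg neurons, so Col4a1 was the higher chain in most of those libraries. It was 0.296, -0.529, -4.49, -4.26 and -3.87 in P301S astrocytes, with -2.46 to 0.522 in non-Tg astrocytes. Group means were 0.75 ± 0.52, 0.76 ± 0.74, -2.57 ± 2.27 and -0.73 ± 1.13 (SD) in P301S neurons, non-Tg neurons, P301S astrocytes and non-Tg astrocytes. The lowest 3 ratios were those of P301S astrocyte libraries 3, 4 and 5. The 5 libraries had 114, 37, 5, 2 and 29 counts of Col4a1 and 80, 46, 97, 33 and 364 of Col4a2, so Col4a1 was low in libraries 3 and 4 and Col4a2 high in library 5.

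**Figure D3:**
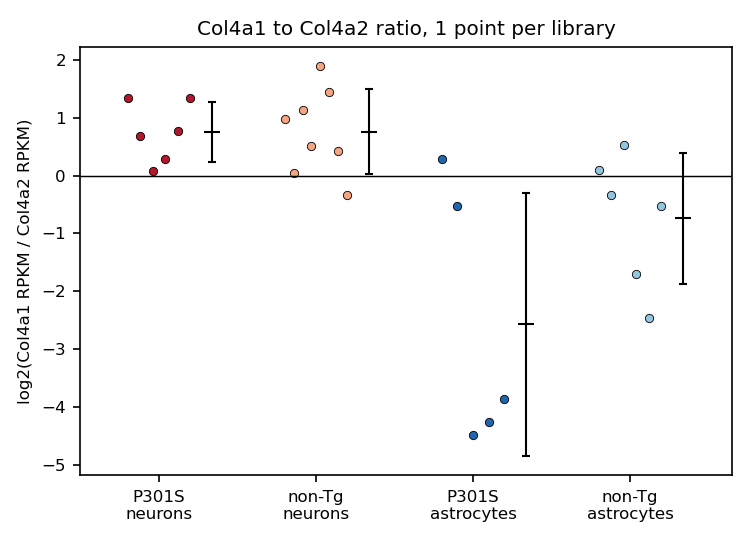
Log2 ratio of Col4a1 to Col4a2 (RPKM) in each library, with bars for the group mean ± SD. Neuron libraries lie between -0.334 and 1.89, and astrocyte libraries reach down to -4.49.

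Col4a5, a chain of another type IV trimer, was an astrocyte-side gene. It had 0, 0.745 and 2.25 CPM (lowest, median and highest) in P301S neurons, against 20.4, 15.5, 2.05, 99.2 and 8.99 CPM in P301S astrocytes. Non-Tg neurons had 0.227, 0.548 and 2.70 CPM, against 21.3, 33.6 and 38.7 CPM in non-Tg astrocytes (likewise lowest, median and highest). The groups overlapped in P301S, where astrocyte library 4 stood far above the rest, and did not in non-Tg. The log2 differences were -5.11 (SE 0.75) in P301S, or -3.77 without P301S astrocyte library 4, and -5.31 (SE 0.67) in non-Tg. Col4a6, which lies beside it on the X chromosome, was not called, at -0.25 (SE 0.68) and -1.10 (SE 0.57; edgeR adjusted p = 0.780 and 0.113).

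Genes that process or bind these proteins were counted from 3 lists. For scale, 29.0% of all genes tested were lower and 23.2% higher in P301S neurons, and 25.1% and 21.8% in non-Tg neurons. The medians over all genes were -0.21 and -0.11. Among enzymes that modify and cross-link collagen, 9 of 16 tested were lower and 0 higher in P301S neurons, and 8 were lower and 1 higher in non-Tg neurons (medians -1.79 and -1.37). Among basement membrane and matrix partners 10 of 15 were lower and 1 higher in P301S, and 11 lower and 2 higher in non-Tg (medians -2.44 and -2.45). Among integrin adhesion adaptors 10 of 19 were lower and 3 higher in P301S, and 9 lower and 3 higher in non-Tg (medians -1.498 and -1.04). Examples are the matrix protein gene Sparc (-4.37 and -4.33), the tensin gene Tns1 (-4.19 and -3.79), the dystroglycan gene Dag1, a laminin receptor (-2.44 and -2.45), and the prolyl hydroxylase gene P4ha3 (-5.29 and -3.79). The kinase gene Ptk2b was higher in neurons (3.50 and 3.55).

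P301S was next set against non-Tg within astrocytes, in an edgeR fit of those 11 libraries over 12130 genes, of which 0.544% were called in either direction. Of the 37 members tested 1 was called, Col2a1, which rose. At an unadjusted p under 0.05 there were 5 of the 37 members, 4 higher and 1 lower, a share close to that of all genes (1629 of 12130). The median change of the 37 was 0.13 (log2), the same as the 0.13 over all genes tested. The groups did not overlap for 2 of the 37 members, Col2a1 and Col27a1, beside 2.09% of all genes tested. By family the medians were 0.23 for 19 collagen chains, -0.05 for 6 laminin chains and -0.27 for 12 integrin subunits.

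Col2a1 encodes the single chain of type II collagen, the fibril collagen of cartilage, and lies on chromosome 15 from 97975602 to 98004724. It had 20.4, 49.96, 39.6, 49.2 and 79.6 CPM in the P301S astrocyte libraries (71 to 239 counts), against 1.27, 3.18 and 8.32 CPM (lowest, median and highest; 4 to 21 counts) in non-Tg astrocytes. Every P301S library was above every non-Tg library. The means were 47.8 ± 21.4 CPM in P301S and 4.12 ± 2.92 CPM in non-Tg (SD, n = 5 and 6), a log2 change of 3.57 (SE 0.62, edgeR adjusted p = 0.00671). In neurons the gene stayed low, at 0 to 8.03 CPM in P301S and 0 to 3.78 CPM in non-Tg.

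The call of Col2a1 was lost when any of 4 library measures was added as a covariate: sex markers (3.38, adjusted p = 0.0870), genes detected (2.53, adjusted p = 0.996), microglia markers (4.60, adjusted p = 0.208) or endothelial and mural markers (3.44, adjusted p = 0.147). Over all 22 other settings the edgeR, DESeq2 or voom adjusted p ran from 1.25e-07 to 0.996, with calls in 18, including each fit that left out 1 library. Few calls of any gene remained with the covariates: 15 with sex markers, 0 with genes detected, 2 with microglia markers and 10 with endothelial and mural markers, where 66 were called without them. Of 5 sex marker genes edgeR called 0 between the astrocyte genotypes, with 1 higher and 1 lower at an unadjusted p under 0.05. Between neurons and astrocytes in P301S it called 1 of the 5. Whether the groups differ in sex was not tested.

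Oligodendrocyte precursor markers moved the same way in most of these libraries. The sum of 6 such markers was 312, 314, 459, 37.6 and 204 CPM in P301S astrocytes, against 68.0, 87.5 and 153 CPM (lowest, median and highest) in non-Tg astrocytes, and none of the 6 was at 0 in every library of either group. Most of it was Olig2 (means 222 and 81.4 CPM, edgeR adjusted p = 0.105). The sum of 9 oligodendrocyte markers was 397 to 1190 CPM in P301S against 201 to 529 CPM in non-Tg astrocytes, and that of 13 microglia and myeloid markers 105 to 258 against 62.3 to 114 CPM. The mitochondrial share given above was higher in P301S libraries 2 to 5 than in all non-Tg astrocyte libraries. Of these measures only the microglia markers were a covariate above. The part of precursor markers, oligodendrocyte markers and mitochondrial share in the Col2a1 change was not tested.

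**Figure D4:**
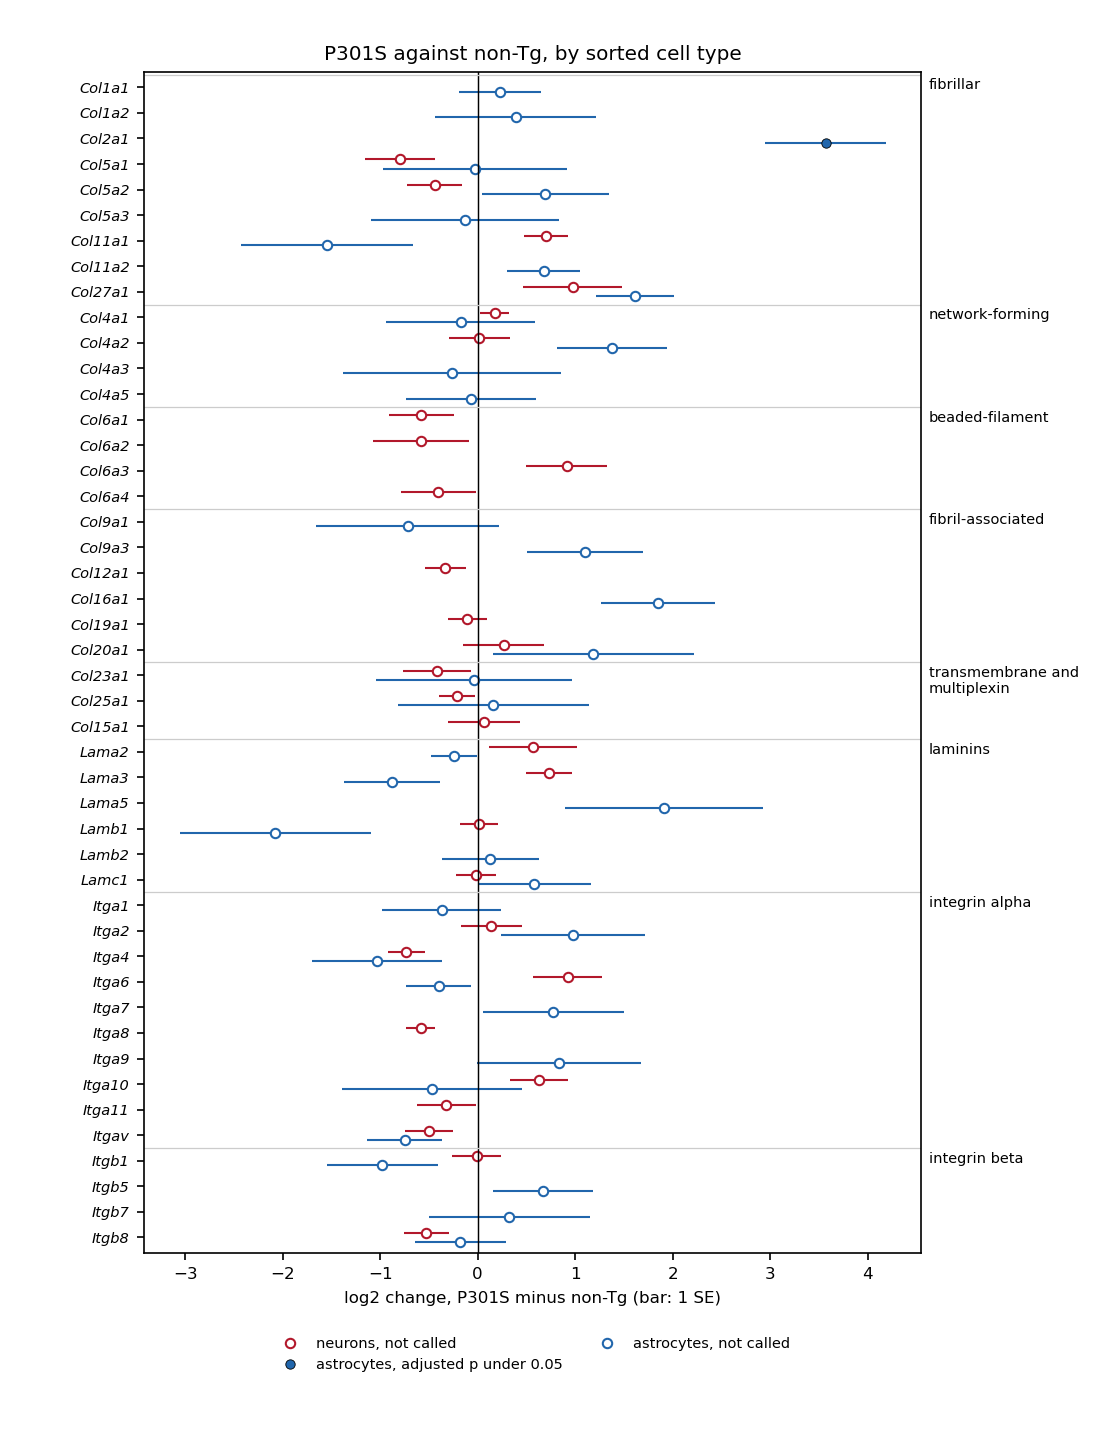
Log2 change (P301S against non-Tg) of the tested members, each member's value in neurons above that in astrocytes, with bars of 1 SE. The only filled point (adjusted p under 0.05) is Col2a1 in astrocytes, at 3.57.

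Col27a1 was the other member without overlap. It lies on chromosome 4 from 63214009 to 63334991. It had 90.1, 90.1, 97.0, 233 and 124 CPM in P301S astrocytes, against 20.2, 37.4 and 80.4 CPM (lowest, median and highest) in non-Tg astrocytes. Its lowest P301S libraries were close to the highest non-Tg library. The change of 1.62 (SE 0.40) was not called by edgeR (adjusted p = 0.0706). It was called with DESeq2 (0.00701), limma voom (0.0174), no filter (0.0100) and all 25 libraries in 1 fit (0.0278), and without P301S astrocyte library 2 (0.0481) or non-Tg astrocyte library 4 (0.0409), in a range of 0.00701 to 0.996 over 22 settings.

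Col16a1, a fibril-associated chain, had 39.7, 9.49, 46.1, 43.1 and 59.3 CPM in P301S astrocytes, against 3.26, 9.86 and 24.2 CPM in non-Tg astrocytes. Only P301S library 2 lay within the non-Tg range. The change of 1.85 (SE 0.58) was not called (edgeR adjusted p = 0.160, range 0.0253 to 0.996 with calls in DESeq2 and in the fit of all 25 libraries). Col4a2 had a change of 1.38 (SE 0.57, edgeR adjusted p = 0.286), with library 5 at 121 CPM above the others. Lamb1 had -2.07 (SE 0.98, adjusted p = 0.366), on counts near the floor in P301S astrocytes.

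Several members that were higher in astrocytes than in neurons were not called between genotypes. Lama2 had a change of -0.24 (SE 0.23, edgeR adjusted p = 0.684), Itgav -0.75 (SE 0.39, adjusted p = 0.403), Itgb8 -0.18 (SE 0.47, adjusted p = 0.908) and Lamb2 0.13 (SE 0.50, adjusted p = 0.937). Lama3 had 153, 18.02, 9.90, 82.1 and 49.96 CPM in P301S astrocytes, against 77.4, 116 and 141 CPM in non-Tg astrocytes. The P301S libraries spread over a far wider range, and the change of -0.88 (SE 0.49) was not called (adjusted p = 0.443). Of the related lists, 0 genes were called among 15 tested collagen enzymes, 14 matrix partners and 19 adaptors, with 5, 1 and 4 at an unadjusted p under 0.05 and medians of 0.74, 0.49 and 0.39. Over all genes 1629 of 12130 were under that p, with a median of 0.13. P4ha3 had the smallest p of the listed genes, with a change of 2.63 (SE 0.67, edgeR adjusted p = 0.0806).

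In neurons 29 members were tested between P301S and non-Tg in a fit of 14 libraries, and edgeR called 0 of them, where 0.00913% of 10951 genes (1 gene) were called. At an unadjusted p under 0.05 there were 9 of the 29 members, 5 higher and 4 lower in P301S, beside 846 of the 10951 genes. DESeq2 called 1 member, Itga8, and limma voom 1, Itga4. The groups overlapped for all 29, beside 0.228% of all genes that did not overlap. The median change was -0.02 for the members and -0.02 for all genes.

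The smallest p values belonged to the alpha subunits that marked neurons. Itga8 lies on chromosome 2 from 12106632 to 12301985. It had 68.8, 109 and 156 CPM in P301S neurons, against 147, 160 and 189 CPM in non-Tg neurons (lowest, median and highest). Most P301S libraries were below the lowest non-Tg library, but the ranges met. The change was -0.58 (SE 0.15, edgeR adjusted p = 0.209), with a DESeq2 adjusted p of 0.0431 and a range to 1 over 25 settings.

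Itga4 had 56.2, 96.2 and 105 CPM in P301S neurons, against 89.9, 156 and 189 CPM in non-Tg neurons. The upper P301S libraries lay within the lower part of the non-Tg range. The change was -0.73 (SE 0.19, edgeR adjusted p = 0.222). It was called with limma voom (0.0244), without the 2 non-Tg libraries with sample identifiers of another range (0.0434) and without non-Tg neuron library 8 (0.0465), in a range to 1 over 25 settings.

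Lama3 ran higher, at 15.6, 19.2 and 27.1 CPM in P301S neurons, against 3.56, 12.4 and 16.7 CPM in non-Tg neurons. The ranges met only at their ends, and the change of 0.73 (SE 0.23) was not called (edgeR adjusted p = 0.388). Col11a1 had a change of 0.70 (SE 0.22, adjusted p = 0.403), with 80.6 to 219 CPM in P301S libraries against 63.1 to 180 CPM in non-Tg libraries. Itga6 had 0.92 (SE 0.35, adjusted p = 0.533) and Itgb8 -0.52 (SE 0.23, adjusted p = 0.628). Col6a3, at 0.91 (SE 0.42, adjusted p = 0.631), had 1 P301S library at 64.8 CPM. Itga10, at 0.63 (SE 0.30, adjusted p = 0.645), shares 34.5% of its exon bases with Gm42957.

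**Figure D5:**
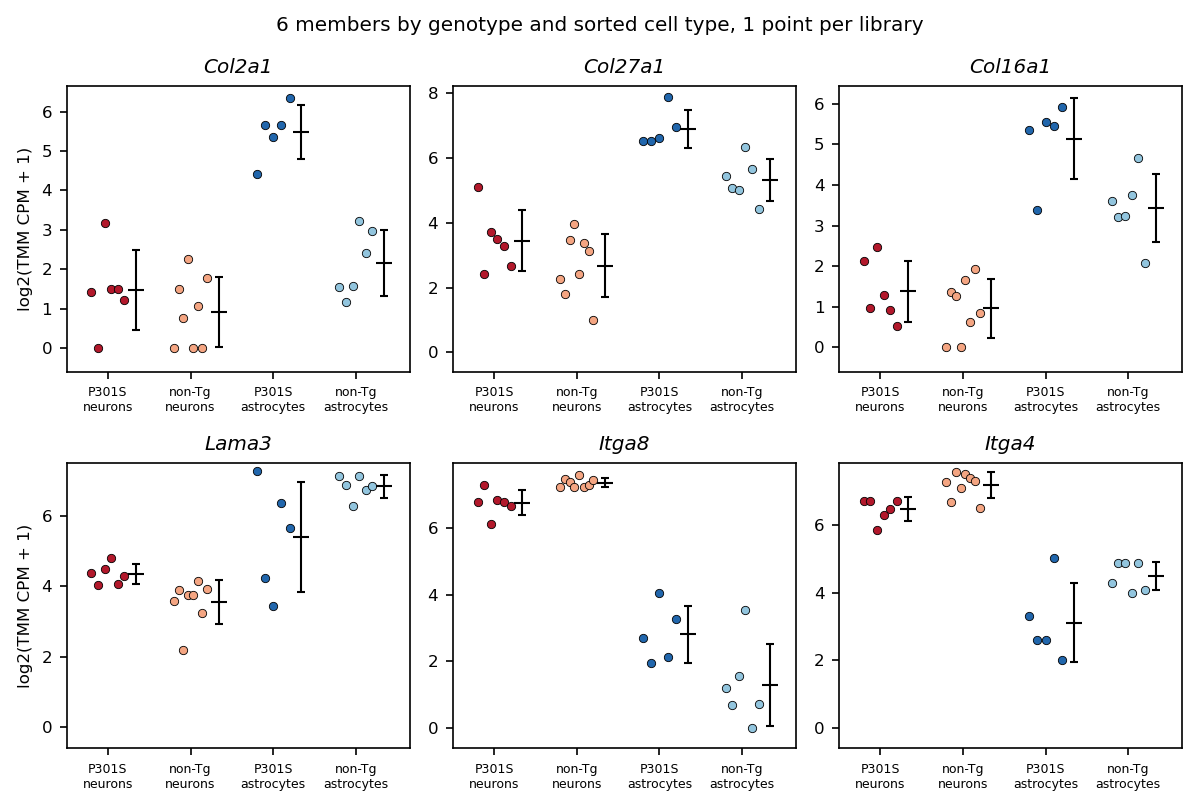
Level of Col2a1, Col27a1, Col16a1, Lama3, Itga8 and Itga4 in each library as log2(TMM CPM + 1), in P301S neurons, non-Tg neurons, P301S astrocytes and non-Tg astrocytes, with bars for the group mean ± SD. Col2a1 and Col27a1 separate the astrocyte genotypes without overlap, and the neuron genotypes overlap in all 6 panels.

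Whether the genotype effect differed between the cell types was tested as a difference (astrocytes minus neurons) in the fit of all 25 libraries, where 0.394% of 14197 genes were called. Of the 48 members edgeR called 0, with 10 at an unadjusted p under 0.05 (2106 of all 14197 genes), DESeq2 called 3 and limma voom 0. The median difference was 0.27 for the members and 0.09 over all genes. The smallest p values were those of Itga8 (2.27, SE 0.70, edgeR adjusted p = 0.106), Col11a1 (-2.18, SE 0.67, 0.107) and Lamb1 (-2.05, SE 0.70, 0.142), which were the 3 that DESeq2 called. Col2a1, called in astrocytes, had a difference of 2.75 (SE 0.97, adjusted p = 0.158), so its change was not shown to differ between astrocytes and neurons.

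Leaving out P301S astrocyte library 1, which had the most Col11a1 and Lama3 of its group, brought 4 calls of this difference (Col11a1, Itga3, Lama3 and Lamb1), and leaving out non-Tg astrocyte library 4, the highest of its group for Itga8, brought 1 (Itga8).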

How the data were processed

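Gene expression was measured by RNA-seq in 25 libraries of sorted mouse neurons and astrocytes, grouped by the labels' genotype and cell type. The deposited counts give, per the file headers, the unique alignments to each gene model. The deposited size-factor-adjusted RPKM were computed by the authors. They are the counts multiplied by a sample factor and a gene factor (largest relative deviation 3.53e-14). They were used to compare levels between genes, for the family sums and for the Col4a1 to Col4a2 ratio. Where family sums are compared between groups, they rest on the authors' size factors. GSNAP and GRCm38 are named in the submitters' processing notes. The aligner version and any use of strand were not given in the sources used here. Of 36528 gene IDs, 31049 matched a symbol; the 5479 others (3.30% of counts) stayed in every fit.

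Counts were tested with edgeR 4.0.16 (R 4.3.3): TMM scaling, filterByExpr, robust quasi-likelihood fit and Benjamini-Hochberg adjustment over all genes tested, with calls at an adjusted p under 0.05. Genotype was compared within each cell type. Neurons against astrocytes and the difference of genotype effects came from 1 fit of all 25 libraries. CPM are TMM-scaled over all libraries. The procedure was run on simulated counts in which all genes had the same spread and only well-counted genes changed. That setting does not cover members near the floor or groups that differ in spread. DESeq2 1.42.0, limma 3.58.1 voom, other filters and scaling, covariates and left-out libraries were the alternatives. Promoter windows are from RefSeq (GRCm38.p6), exon overlaps from the gene annotation.

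Members, role lists and pathway lists were chosen with earlier results of these data known. Named are members called between genotypes or in the difference, the 3 per role list with the smallest p between cell types in non-Tg and 2 per genotype comparison, the 10 with the highest RPKM per group, and up to 3 called genes per pathway list. Others named, and the Col4a1 to Col4a2 ratio, were chosen after their values were seen.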

Additional observations from a re-analysis of the deposited data

Results flagged for a closer look

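Among 25 named members, 87 groups of 5 to 8 libraries were examined for 1 library far from the rest by Dixon's criterion. Only groups with at least 10 counts in 1 library were taken. In 19 groups a library stood out, each as the highest value. The criterion flags about 1 in 20 groups of normally distributed values. CPM were not logged and low counts are skewed, so that rate cannot be set against the 19. All values are TMM-scaled CPM, each followed by the nearest value in its group. Several came from the same libraries.

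In P301S astrocytes, library 4 had Lama2 at 492 (next 334), Col27a1 at 233 (next 124) and Itga4 at 31.5 (next 8.92). These 3 values depend on the TMM scaling. In library 4, 1 count was 0.684 CPM, against 0.288, 0.316, 0.342 and 0.333 CPM in libraries 1, 2, 3 and 5. Library 4 had 719 counts of Lama2 and 341 of Col27a1 in 2.50e+06, and library 5 had 1004 and 372 in 3.28e+06. Its Itga4 count of 46 was the highest of the group (next 31). Library 2 had Col20a1 at 24.0 (next 6.66) and Col25a1 at 17.4 (next 3.76). Library 5 had Col4a2 at 121 (next 33.1) and library 1 had Col6a1 at 4.89 (next 0.683). In non-Tg astrocytes, Itga8 was at 10.6 in library 4 (next 1.98) and Itgb5 at 52.7 in library 5 (next 23.6).

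In P301S neurons, library 3 had Col6a3 at 64.8 (next 16.0) and Col2a1 at 8.03 (next 1.83), and library 1 had Col27a1 at 33.2 (next 12.1). In non-Tg neurons, library 8 had Col4a2 at 84.0 (next 42.1), Col6a1 at 59.4 (next 26.7), Col5a1 at 34.1 (next 20.0) and Col23a1 at 28.7 (next 9.98). Library 5 had Itgb1 at 39.4 (next 24.2) and Itgav at 31.8 (next 20.0), and library 6 had Col11a1 at 180.4 (next 104).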

How the results depend on the processing

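Between the cell types the counts of 34 (P301S) and 33 (non-Tg) called members stayed within 1.5 times under every alternative run. They were lowest when the 2 groups were fitted alone, at 25 of 37 tested members in P301S and 26 of 34 in non-Tg. Of all genes that fit called 4925 in P301S, in place of 7420, and 6681 in non-Tg, in place of 6659. RLE size factors moved the median of all genes to -0.08 in place of -0.21 in P301S and to 0.08 in place of -0.11 in non-Tg, so differences of the members are relative to that. Of 765 values of named members per genotype, 755 in P301S and 745 in non-Tg kept direction and call.

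In astrocytes 1 member was called between genotypes. The count was 7 with all 25 libraries in 1 fit (1682 of all genes), 3 with DESeq2 (441), 2 with limma voom (124), 2 with no filter (561), 0 with each of the 4 covariates (0 to 15 of all genes), and 1 to 2 when single libraries were left out. In neurons it was 0, and 1 with DESeq2, 1 with limma voom, 1 without the non-Tg libraries of the other identifier range and 0 to 1 when single libraries were left out. For the difference of genotype effects it was 0, and 3 with DESeq2 and 0 to 4 when single libraries were left out.

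Directions that turned were those of uncalled members. In astrocytes Col4a3 (-0.26) had 0.15 with sex markers, 2.38 with genes detected, 0.55 with microglia markers, 1.26 with endothelial and mural markers and 0.43 without P301S libraries 3 and 4. Col25a1 (0.16) had -1.35 with voom, Col23a1 (-0.04) 0.0504 with sex markers, Lama5 (1.92) -1.58 with sex and -0.90 with microglia markers, and Itgb5 (0.67) -0.0872 with genes detected. In neurons Itgb1 (-0.01) had 0.0050 with voom, 0.0829 with genes detected and 0.12 without the other identifier range. Col4a2 between cell types in P301S had 0.14 with voom. The causes were not tested.

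When single libraries were left out, the ranges that crossed 0 were -1.01 to 0.0588 for Col4a3, -1.40 to 0.44 for Col25a1 and -0.87 to 0.30 for Col23a1 between astrocyte genotypes, -0.18 to 0.35 for Col4a2, -0.57 to 0.0351 for Col23a1 and -0.13 to 0.19 for Itgb1 between neuron genotypes, and -0.62 to 0.55 for Col4a2 and -0.21 to 0.94 for Col23a1 between cell types in P301S.

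No paired analysis was possible because the labels give no replicate numbers. Depth limits the 31 members left out by the filter.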
